A study of Mus musculus with 8 samples.

Results

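The pluripotency genes examined here are 9 genes whose transcripts mark mouse embryonic stem (ES) cells: Pou5f1, Nanog, Klf4, Zfp42, Utf1, Dppa3, Dppa4, Dppa5a and Tdgf1. They were taken by name from the gene column of the arrays, where 14 probes carry one of these names, and each gene was represented by its probe with the highest mean signal. The arrays name 35682 genes in all, and the 9 genes are among the 27255 that had a probe well above background (the scanner software's own flag) on at least 2 of 8 arrays. Total RNA was measured in neurospheres, floating aggregates of neural stem and progenitor cells, grown from the mouse ES line EB3 on single-colour (Cy3) 60-base oligonucleotide arrays.

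EB3 cells formed embryoid bodies in the presence of Noggin, which were dissociated at day 6 and infected with lentivirus at a multiplicity of infection of about 25, so every group carries a vector. Cells were then grown in suspension with FGF2 at 20 ng/ml for 6 days as primary neurospheres (P0), and dissociated and regrown to tertiary neurospheres (P2). There were 4 conditions, each with 1 array at P0 and 1 at P2: a control shRNA against firefly luciferase, shRNA against Nr2f1 and Nr2f2 (the COUP-TF nuclear receptors), a control miRNA, and miR-17. The title of the series places these cultures in a study of how the type of neuron made from progenitors changes with time. EB3 is known as a line with a blasticidin resistance gene placed in the Pou5f1 locus. No condition has a second array at a passage, so passage was compared over 4 arrays against 4, with condition as a block. The p-values measure only the spread between these arrays.

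Pou5f1 (Oct3/4), Nanog and Klf4 are transcription factors that bind together with Sox2 at the enhancers of ES cells and keep one another expressed, and ES cells shut this network down as they become neural. Zfp42 (Rex1), Dppa3, Dppa4, Dppa5a and Utf1 are used as markers because they are high in ES cells and silent in most somatic tissues. Tdgf1 (Cripto) is the cell-surface co-receptor of the ligand Nodal. Klf4 differs from the rest in that it is also expressed in many differentiated cells.

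On this slide Zfp42 fell with passage and Klf4 rose. Dppa3 also passed the test for a decline, but it was kept for testing only through 2 P0 arrays, the passage where it is higher, so its call is no support for one. The other 6 genes did not pass. Values are log2 intensities minus the 75th percentile of the array's own, and a gene was called when its adjusted p was under 0.05. Zfp42 was 12.3-fold lower at P2 by measured means, or 8.12-fold with its 3 dim P2 arrays at the lowest signal above background. Klf4 was 2.42-fold higher. Dppa3 was 2.08-fold lower with its P2 arrays at that lowest signal, but P0 arrays in this value were dim too, so it is no measured decline. Dppa5a, with a mean as far down as that of Zfp42, missed the threshold, with a standard error of 0.71 where that of Zfp42 was 0.51. With Benjamini-Hochberg adjustment over all genes in limma, 2 of the 9 genes (Zfp42 and Dppa3) were called lower and 1 higher, where 2.33% of all genes were called lower and 2.58% higher. Before adjustment 7 of the 9 genes had a p under 0.05, as did 40.1% of all genes. In 7 of the 9 genes the P2 array was below the P0 array in all 4 conditions, as in 32.1% of all genes, and in Klf4 it was above in all 4, as in 17.3%. The P0 and P2 arrays did not overlap for Zfp42, Dppa3 and Dppa5a, which were lower at P2 (15.2% of all genes), or for Klf4, which was higher (9.28%). Both counts of 7 include Dppa3 and Dppa4, and the genes without overlap include Dppa3. As these 2 genes were kept through P0 arrays alone, they lend no support to those counts. The median passage difference of the 9 genes was -1.42 on the log2 scale, against -0.21 for all genes, a gap of -1.21. The gap was -1.40 under quantile normalization, -0.50 with a normexp background correction and -0.51 over the 5 genes above background on all 8 arrays. The median gene is Tdgf1, whose probe is described below, and Dppa3 and Dppa4 entered the median through P0 arrays alone, so it is a description only.

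**Figure D1:**
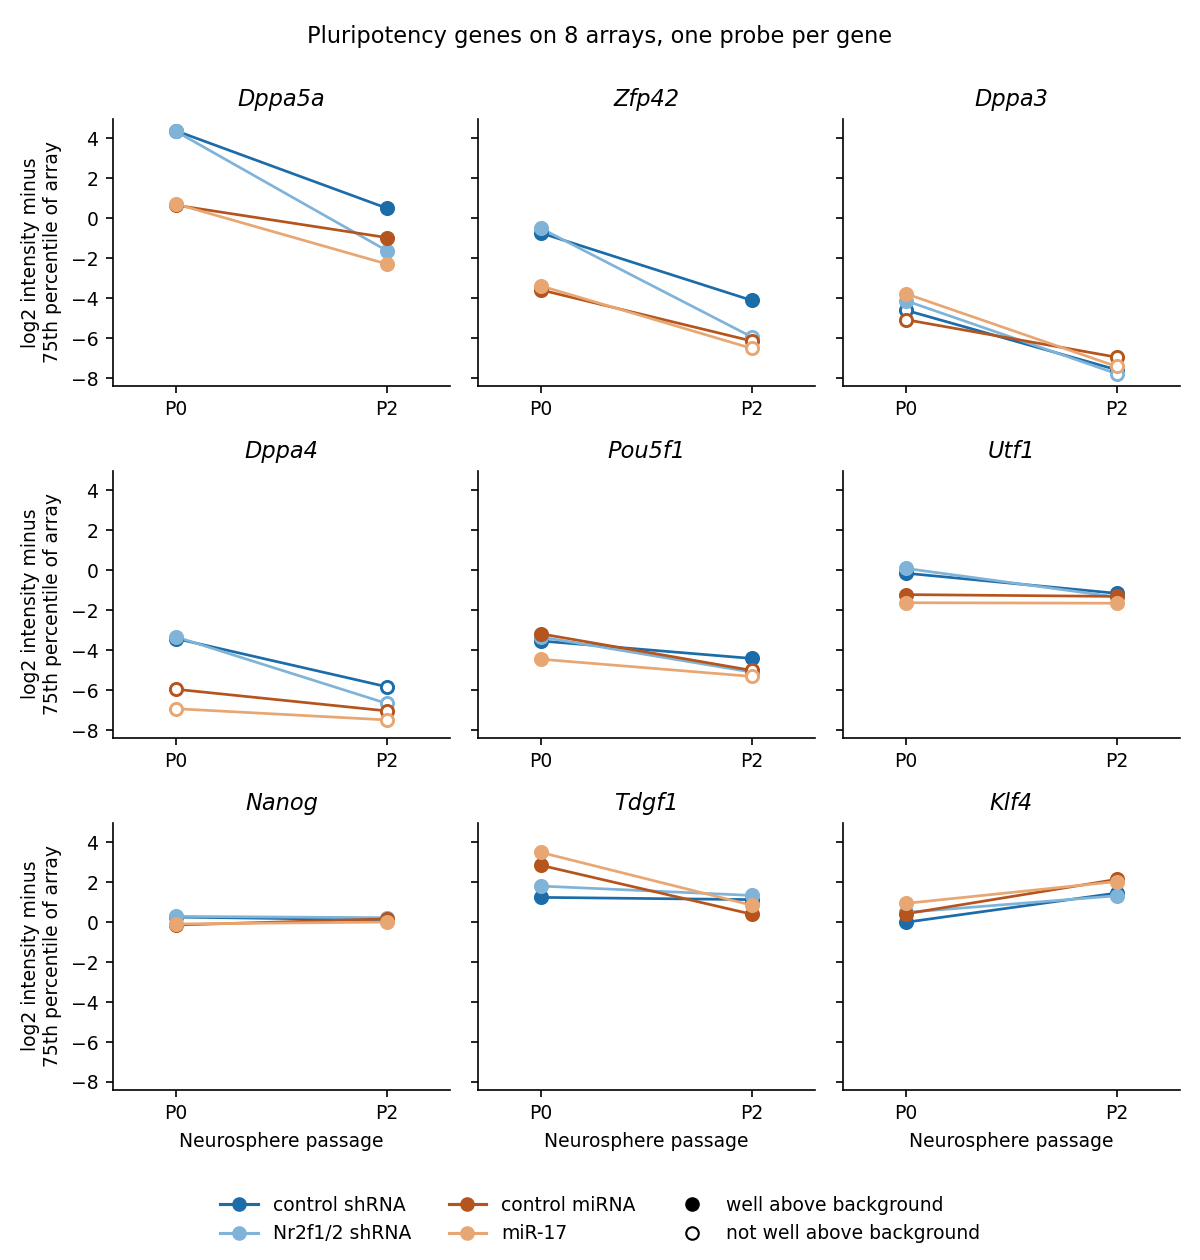
Normalized log2 intensity (y axis, log2 of the signal minus the 75th percentile of the array) of each gene at P0 and P2 (x axis); lines join the 2 arrays of a condition and open circles mark arrays where the probe was not well above background. Zfp42, Dppa3 and Dppa5a lie lower at P2 in all 4 conditions, Klf4 lies higher, and Dppa5a, Zfp42 and Dppa4 start higher in the shRNA cultures than in the miRNA cultures at P0.

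The labels call the cells neural stem and progenitor cells, and the 9 neural stem and progenitor markers on the list, Nes, Sox1 and Pax6 among them, were well above background on all 8 arrays. Arrays had 57.9% to 67.9% of their non-control spots well above background. All 8 arrays were on 1 slide. The 4 shRNA arrays filled 1 column and the 4 miRNA arrays the other, so vector system and slide column cannot be told apart. The 4 P0 arrays lay in rows 1 and 2 and the 4 P2 arrays in rows 3 and 4. Passage and slide row cannot be told apart either. Against the control shRNA, Nr2f1 was 1.73-fold lower at P0 and 2.25-fold lower at P2 in the knockdown, and Nr2f2 1.42-fold and 1.87-fold lower. The control miRNA culture carries no such shRNA. At P0 it was itself 2.12-fold lower for Nr2f1 and 2.16-fold lower for Nr2f2 than the control shRNA. At P2 it was 2.30-fold lower for Nr2f2 but higher for Nr2f1, at a normalized log2 intensity of 5.67 against 4.90. The 8 arrays hold no label that separates fewer ES-like cells from less RNA in each cell, and in bulk RNA those cannot be told apart.

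Pou5f1, the factor on which ES cell identity depends, was close to background throughout, with signals of 17.9 to 70.2. Its normalized log2 intensity at P0 was -3.54 in the control shRNA, -3.34 in the knockdown, -3.18 in the control miRNA and -4.45 with miR-17. At P2 the same cultures gave -4.42, -5.10, -5.01 and -5.31, and the probe was well above background only in the 2 shRNA cultures. The P2 array was lower in each condition, but the miR-17 array at P0 lies just under the control shRNA array at P2, so the passages overlap. The mean difference was -1.33 ± 0.26 (SE) on the log2 scale, a 2.52-fold lower level, with an adjusted p of 0.0533 in limma. It was -0.70 with the normexp correction (adjusted p 0.0383, inside the threshold) and -0.83 under quantile normalization (adjusted p 0.131). Its probe, at chr17:35647280-35647340 of mm9 on the plus strand, shares a stretch of 16 bases with the probe of Pou5f1-rs4, so signals of the 2 transcripts could not be separated with certainty.

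Zfp42, a zinc finger protein long used as a marker of undifferentiated ES cells, showed the clearest decline. At P0 its normalized log2 intensity was -0.74 in the control shRNA, -0.50 in the knockdown, -3.59 in the control miRNA and -3.38 with miR-17. At P2 it was -4.11 in the control shRNA, and the other 3 cultures, at -5.94, -6.14 and -6.51, were not well above background. The highest P2 array lies below the lowest P0 array. The mean difference was -3.62 ± 0.51 (SE; limma adjusted p 0.0372), and it shrinks from 12.3-fold to 8.12-fold when the 3 dim arrays are set to the lowest signal that was well above background on each. Quantile normalization left it just outside the threshold (-3.16, adjusted p 0.0520), and a normexp background correction with an offset of 50 reduced it to -1.82 (adjusted p 0.0448). Within conditions Zfp42 was 10.4-fold lower at P2 in the control shRNA, at least 38.2-fold lower in the knockdown, at least 2.67-fold lower in the control miRNA and at least 4.11-fold lower with miR-17.

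Dppa5a encodes a small KH-domain RNA-binding protein of ES cells and germ cells. At P0 it was 4.38 in the control shRNA and 4.34 in the knockdown, and 0.65 and 0.71 in the control miRNA and miR-17 cultures. At P2 it read 0.50, -1.62, -0.97 and -2.29, and it was well above background on all 8 arrays. The 4 P2 arrays lie below the 4 P0 arrays, with the control shRNA at P2 only just under the miRNA control at P0. The decline was 14.6-fold in the control shRNA, 62.6-fold in the knockdown, 3.07-fold in the control miRNA and 8.02-fold with miR-17. The mean of these, -3.62 ± 0.71 (SE), gave an adjusted p of 0.0532 in limma. The Dppa5a probe shares stretches of 16 bases with the probes of 5 other genes or unnamed transcripts. Only 2.52% of all probes share with as many. How far other transcripts contributed to its signal was not tested.

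Dppa3 (Stella), which protects the maternal genome from demethylation in the early embryo, was dim on every array. Its probe was well above background only at P0, in the knockdown at -4.12 and with miR-17 at -3.77, while the control shRNA at -4.60 and the control miRNA at -5.07 were not. At P2 the readings were -7.58, -7.77, -6.95 and -7.41, none well above background, and all below the P0 readings. The mean difference of these readings was -3.04 ± 0.36 (SE), and -0.80 with the normexp correction. Its limma adjusted p of 0.0350 compares the passage that let the gene through the filter with one where it was not above background, and lends no support. With dim P2 arrays at the lowest signal above background, P2 was 2.08-fold lower. As 6 of the 8 readings were not well above background, 2 of them at P0, this is no measured decline.

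Dppa4, a chromatin-bound SAP-domain protein, was well above background only in the shRNA cultures at P0, at -3.42 in the control and -3.34 in the knockdown. The miRNA cultures at P0 read -5.96 and -6.93, and the P2 cultures read -5.83, -6.67, -7.04 and -7.49, all not well above background. The mean difference with passage was -1.85 ± 0.51 (SE), adjusted p 0.0722 in limma. With dim P2 arrays at the lowest signal above background it was 1.45-fold, a value that includes the dim miRNA arrays at P0. Like Dppa3, Dppa4 was kept for testing through P0 arrays alone. A second Dppa4 probe was also well above background in those 2 cultures alone, at -3.91 and -3.96, and the third on no array.

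Utf1, a chromatin-associated factor restricted to pluripotent cells and germ cells, was well above background on all arrays. At P0 it was -0.15 in the control shRNA, 0.09 in the knockdown, -1.22 in the control miRNA and -1.63 with miR-17. At P2 the values were -1.16, -1.34, -1.31 and -1.65, so only the 2 shRNA cultures at P0 stand above the rest. It was 2.01-fold lower at P2 in the control shRNA and 2.69-fold lower in the knockdown, but 1.06-fold and 1.02-fold lower in the control miRNA and miR-17 cultures. The mean passage difference was -0.64 ± 0.31 (SE), adjusted p 0.185 in limma.

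Nanog, the homeodomain factor whose level sets how readily ES cells leave pluripotency, has 2 probes that disagree. The brighter one, at chr6:122663676-122663735 of mm9, hardly moved, with 0.25, 0.29, -0.14 and -0.09 at P0 and 0.11, 0.22, 0.16 and 0.00 at P2 in the order control shRNA, knockdown, control miRNA and miR-17. Its passage difference was 0.05 ± 0.18 (SE), adjusted p 0.854. The second, at chr6:122664590-122664649, read 0.28, 0.48, -1.77 and -2.37 at P0, and -1.07, -2.89, -0.47 and -1.16 at P2. It was thus 2.55-fold and 10.4-fold lower at P2 in the 2 shRNA cultures, and 2.47-fold and 2.32-fold higher in the 2 miRNA cultures, with a mean of -0.55 ± 0.87 (SE) and an adjusted p of 0.653 in the fit over 39640 probes. Both probes were well above background on all 8 arrays.

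The 2 Nanog probes differ in how much of their sequence occurs elsewhere. Stretches of 16 bases from the brighter probe, on either strand, occur in the promoter windows (from RefSeq, GRCm38.p6, 250 bases before to 50 after the start of a gene) of 76 other genes of 27025, as many as for only 0.409% of all probes, and in the probes of 14 other genes. The second probe shares no such stretch with another gene's promoter window or probe. The most frequent shared stretch, in capitals here, stands in the promoter windows of 44 genes; the 30 bases shown are the first of the probe, given because the unmoving signal of Nanog rests on it.
Nanog brighter probe: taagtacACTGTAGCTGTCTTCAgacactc
How far transcripts other than Nanog contributed to this signal was not tested.

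**Figure D2:**
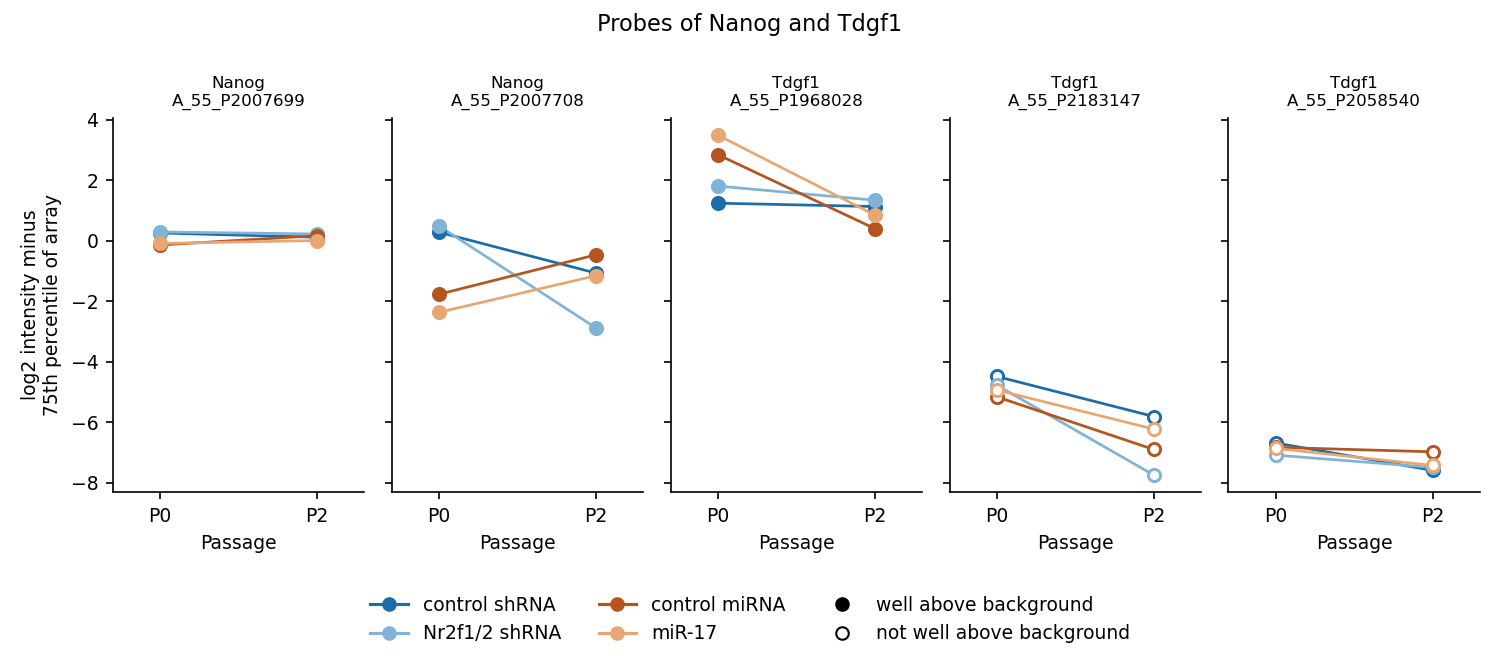
Normalized log2 intensity (y axis) of the 2 Nanog probes and 3 Tdgf1 probes at P0 and P2 (x axis), with a line per condition and open circles where the probe was not well above background. The brighter Nanog probe is flat and the second one moves in opposite directions in the shRNA and miRNA cultures, while only 1 of the 3 Tdgf1 probes is above background.

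Tdgf1 was read by 3 probes to the same transcript, of which 1 was bright and the other 2 were well above background on 0 of 8 arrays. The bright probe, at chr9:110842722-110842781 of mm9 on the minus strand, gave 1.24, 1.80, 2.84 and 3.49 at P0 and 1.13, 1.34, 0.40 and 0.85 at P2 in the same order of conditions. It fell little in the shRNA cultures, 1.08-fold in the control and 1.38-fold in the knockdown, and 5.45-fold and 6.24-fold in the control miRNA and miR-17 cultures. The mean difference of -1.42 ± 0.53 (SE) had an adjusted p of 0.113 in limma. The dim probes lie at chr9:110843099-110843158 and chr9:110842866-110842925, and their signals were 4.84 to 29.5 and 4.17 to 6.43.

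The bright Tdgf1 probe holds a run of alternating A and G, and the 3 genes whose profiles over the 8 arrays were nearest to it, out of 16109 searched, have probes with the same run. The distance used is the root mean square of the log2 differences after centring each gene on its mean over 8 arrays, and it was 0.06 for Shc4, 0.07 for Lzts3 and 0.09 for St6galnac1, where the Tdgf1 probe itself varied by 0.97. The shared run of 13 bases is in capitals in these 30-base parts of the 4 probes, shown because it is what the rule for likeness brought together without using sequence.
Tdgf1: gagaaaaaAGAGAGAGAGAGAagaaaaact
Shc4: actacaggAGAGAGAGAGAGAgagagagag
Lzts3: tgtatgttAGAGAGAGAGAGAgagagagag
St6galnac1: gagagagagagagggAGAGAGAGAGAGAga
In all, the probes of 16 other tested genes hold this run on the same strand, a set chosen after these values were seen. The 16 include the 3 genes above, whose closeness picked out the run, so part of their nearness was fixed in advance. Of the 50 tested genes nearest to the Tdgf1 profile, 4 have probes with the run. The median distance of the 16 from the Tdgf1 profile was 0.26, against 1.01 for all genes. Within 0.5 lay 10 of the 16, as did 4.32% of all genes. All 16 were lower at P2 by their mean, as were 60.6% of all genes, with a median difference of -1.35. The probes of 15 further genes hold the run on the opposite strand; their median distance was 0.93, and 0 of the 15 lay within 0.5. The Tdgf1 values above are therefore given as those of a probe, and the part of Tdgf1 transcripts in them was not tested.

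**Figure D3:**
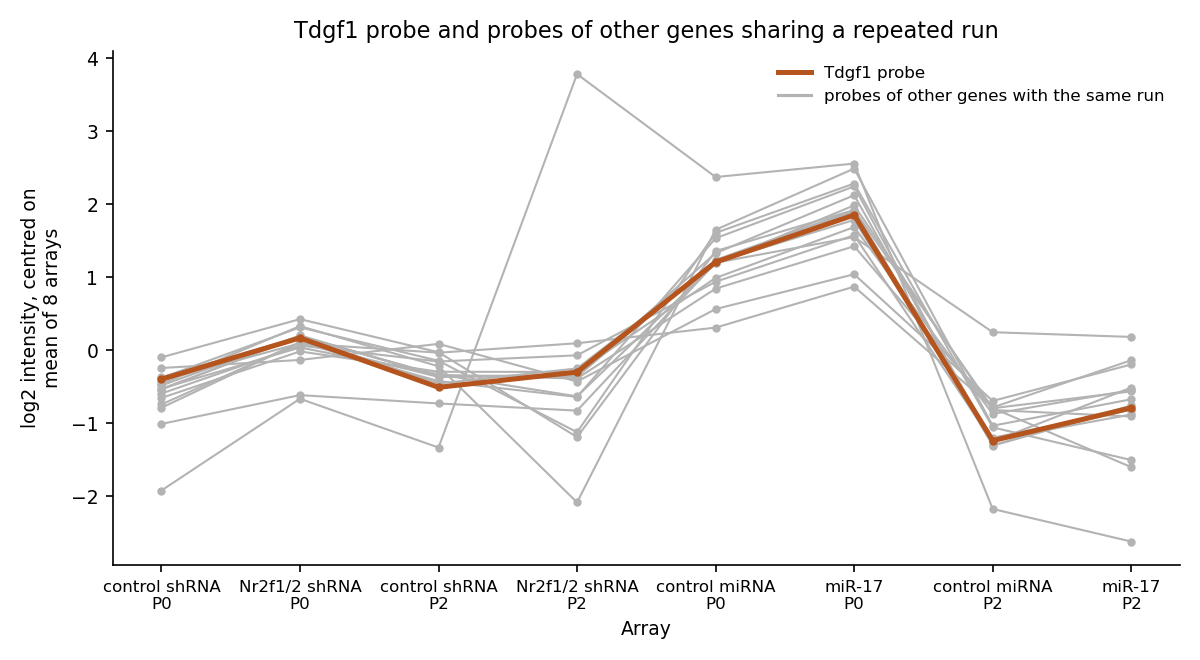
Log2 intensity centred on the mean of 8 arrays (y axis) for the Tdgf1 probe and for the probes of 16 other genes with the same 13-base run (1 line per gene), over the 8 arrays (x axis). Most lines follow the Tdgf1 probe, high in the 2 miRNA cultures at P0 and low in them at P2; the lines spread most in the knockdown at P2.

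Klf4, the zinc finger factor used with Pou5f1 to reprogram somatic cells, was the exception among the 9. At P0 it was -0.01 in the control shRNA, 0.48 in the knockdown, 0.41 in the control miRNA and 0.94 with miR-17. At P2 it was 1.45, 1.32, 2.14 and 2.03. The lowest P2 array lies above the highest P0 array, and the rise was 2.75-fold, 1.78-fold, 3.30-fold and 2.13-fold in the 4 conditions. The mean difference was 1.28 ± 0.22 (SE), with an adjusted p of 0.0471 in limma, just inside the threshold, and 0.0542 without a filter on dim probes, just outside it.

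**Figure D4:**
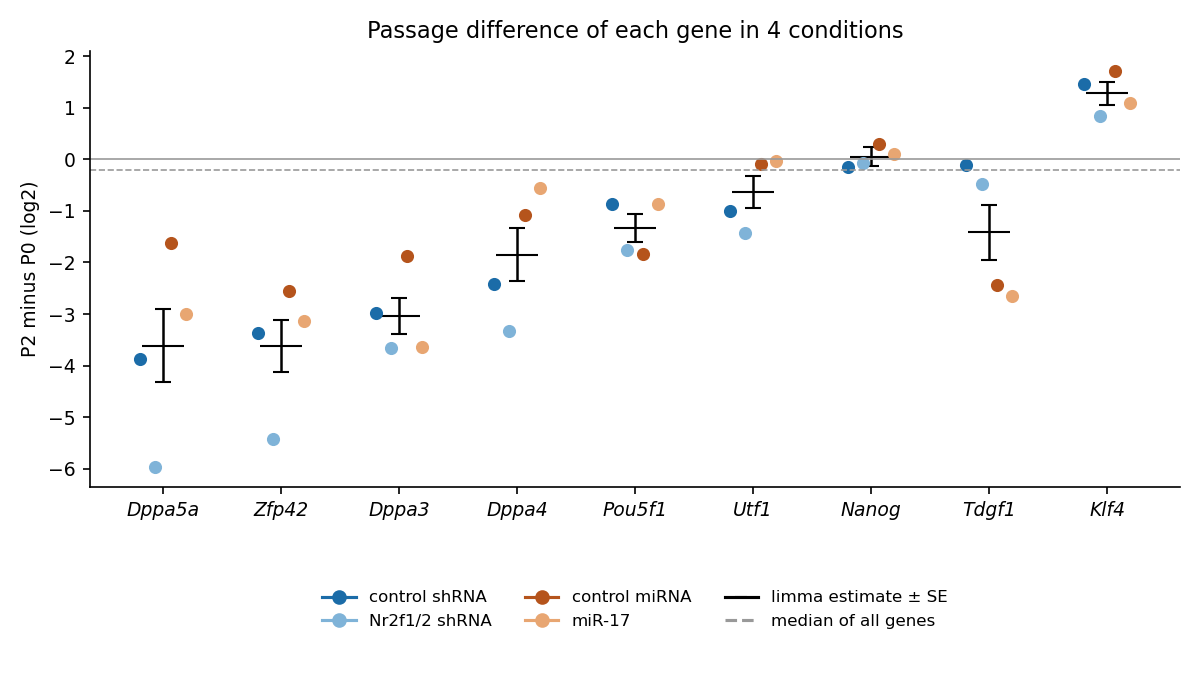
Difference between P2 and P0 (y axis, log2) of each gene in each of 4 conditions (points), with the limma estimate and its standard error (bars, from 8 arrays); the dashed line is the median of all genes, -0.21. Points of Zfp42, Dppa3 and Dppa5a lie well below 0 in all 4 conditions, those of Klf4 above 0, and those of Tdgf1 and Utf1 split between the shRNA and miRNA cultures. Points are not marked for background. Neither array was well above it for Dppa3 in the control shRNA and control miRNA, or for Dppa4 in the control miRNA and miR-17, so those points are no measured decline.

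The 3 calls depend on single arrays. When an array of the control shRNA, of the control miRNA or of miR-17 was dropped, which takes that condition out of the passage comparison, the number of genes called among the 9 was 0, as it was among all 27255 genes. The adjusted p in limma was then 0.123 to 0.156 for Dppa3, 0.128 to 0.157 for Zfp42 and 0.138 to 0.188 for Klf4, and their mean differences remained at -3.43 to -2.84, -3.98 to -3.70 and 1.13 to 1.34. Without either knockdown array, the differences were -2.83 (adjusted p 0.0252), -3.02 (0.0155) and 1.43 (0.0326), and that of Dppa5a was -2.83 (0.0330).

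Other genes of pluripotency behaved unevenly. Of 11 partners in the network of Pou5f1, 10 could be tested, and 2 fell and 1 rose with passage. Those that fell were the orphan nuclear receptor Esrrb (-2.51 ± 0.24 SE, adjusted p 0.0305 in limma) and Nr0b1 (Dax1; -3.95 ± 0.64, adjusted p 0.0428), and Stat3, the mediator of LIF signalling, rose (2.22 ± 0.36, adjusted p 0.0428). Nr5a2 differed by -2.68 ± 0.64 (adjusted p 0.0630), and Sox2, which neural progenitors also need, by 0.38 ± 0.19 (adjusted p 0.196). The median of the 10 was 0.12. Of 12 other genes of ES cells, 4 passed the test as lower and none as higher: Tdh, a threonine dehydrogenase (-3.32 ± 0.32, adjusted p 0.0305), Dppa2, Fgf4 (-2.67 ± 0.47, adjusted p 0.0471) and alkaline phosphatase Alpl (-1.75 ± 0.24, adjusted p 0.0372). Dppa2 was well above background only on 2 P0 arrays, so its call, like that of Dppa3, is no support for a decline. Their median was -1.37, and 9 of the 12 were lower in all 4 conditions.

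The 5 formative and epiblast genes, Fgf5 and Pou3f1 among them, had a median of -2.18 with 0 called, and of 8 tested mesendoderm genes only Eomes was called (-3.37 ± 0.44, adjusted p 0.0364). Among 9 tested genes of the Nodal pathway, in which Tdgf1 acts, 0 were called in limma. Their median was -0.44, the ligand gene Nodal differed by -0.10 ± 0.27 (adjusted p 0.796) and its inhibitor Lefty2 by -2.11 ± 0.59 (adjusted p 0.0738). Of 5 germ cell genes tested, a list that fits Dppa3 and Utf1 by their other site of expression, 0 were called, with a median of -0.60. Of the 9 neural stem and progenitor markers 1 rose, Fabp7 (1.31 ± 0.21, adjusted p 0.0428), with a list median of -0.33. No neuron, endothelial, cell cycle or extraembryonic gene was called with passage, of 6, 4, 7 and 5 tested, and their medians were -0.46, -0.13, -2.92 and -1.75.

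Lists that are not specific to ES cells are given beside Klf4. Of 16 other KLF family genes 0 were called, though their median was 0.62 and 8 were higher at P2 in all 4 conditions; Klf15 (2.16 ± 0.49, adjusted p 0.0602) and Klf6 (1.18 ± 0.25, adjusted p 0.0576) came nearest. Among 8 immediate early genes, which respond within minutes to growth factors and to handling, 4 rose: Egr2, Junb, Egr1 and Ier2, by 4.48, 3.95, 2.65 and 1.52. Among 8 astrocyte markers 4 passed the test as higher, Aldh1l1 (4.77 ± 0.81), Aldoc, Slc1a3 and S100b, the last above background only at P2, and among 6 mesenchyme markers 3 rose, Col1a1, Postn and Col1a2. Their summed levels at P0 and P2, as a percent of each array's 75th percentile, were 2760 to 7357 and 15107 to 30687 for the immediate early genes, 1161 to 1892 and 6493 to 42472 for the astrocyte markers, and 576 to 3192 and 2512 to 7762 for the mesenchyme markers. The part of these cell types or of handling in the rise of Klf4 was not tested.

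The next comparison asks whether silencing Nr2f1 and Nr2f2 altered the pluripotency genes. At P0 none of the 9 genes differed 2-fold between the knockdown and the control shRNA, where 1.22% of all genes were lower and 4.5% higher by that much, and the largest difference was the 1.48-fold higher signal of the Tdgf1 probe. At P2 the knockdown array was lower for Dppa5a by 4.37-fold and for Zfp42 by at least 3.14-fold, where 9.87% of all genes were 2-fold lower, and higher by 2-fold for 0 of the 9 (9%). The second Nanog probe was 3.52-fold lower there. Each is 1 array against 1, without a replicate check. Averaged over both passages, 0 of the 9 genes and 0 of all genes were called in limma (adjusted p 0.999 for the 9), with 518 of all genes (1.9%) and 0 of the 9 at an unadjusted p under 0.05.

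The lower Dppa5a and Zfp42 of the knockdown at P2 stood beside differences in several lists. All 7 cell cycle genes, Mki67 and Top2a among them, were over 2-fold higher in the knockdown than in the control shRNA at P2, with a median of 2.51, and 7 of 8 astrocyte markers were over 2-fold lower, with a median of -2.16. Of the 12 other ES cell genes 5 were over 2-fold lower and 1 higher, with a median of -0.71, and 4 of 5 formative and epiblast genes were over 2-fold higher, with a median of 1.41. Over 2-fold lower were also 3 of 6 mesenchyme markers and 3 of 8 immediate early genes. The part of these in the lower Dppa5a and Zfp42 was not tested. From P0 to P2 in the knockdown, Mki67 changed by -0.20, Top2a by -0.32, Zfp42 by -5.43 and Dppa5a by -5.97. The Zfp42 value is not a measured size, as its P2 array there was not well above background. In the control shRNA Mki67 changed by -2.62, Top2a by -3.08, Zfp42 by -3.37 and Dppa5a by -3.87. The knockdown by passage term of limma, which for Zfp42 includes the dim P2 array of the knockdown, gave -2.47 ± 0.77 (SE) for Zfp42 and -3.22 ± 1.2 for Dppa5a. Its adjusted p was 0.9998 for all 9 genes, and 0 of all genes were called, with 1076 (3.95%) and, of the 9, Zfp42 (0.0321) at an unadjusted p under 0.05.

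The comparison of miR-17 with the control miRNA concerns a miRNA whose seed, bases 2 to 8, overlaps those of the miR-290 and miR-302 families. Mouse ES cells make the miR-290 family in quantity. The mature sequences from RefSeq (GRCm38.p6), with the seed in capitals, are shown for that overlap.
mmu-miR-17-5p: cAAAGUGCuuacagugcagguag
mmu-miR-294-3p: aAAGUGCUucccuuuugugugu
mmu-miR-302b-3p: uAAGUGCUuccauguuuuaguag
All 3 hold AAGUGC within the seed, offset by 1 base in miR-17-5p. The labels name miR-17 without its arm, and mature miRNAs were not measured on these arrays.

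With miR-17 at P0, Pou5f1 was 2.41-fold lower than in the control miRNA (2.15% of all genes were 2-fold lower) and Dppa3 at least 2.12-fold higher (4.62% were 2-fold higher). Dppa3 was kept for testing only through this miR-17 array and the knockdown array at P0. Its higher reading is therefore no support for a difference. At P2 Pou5f1 was not well above background in either culture, and Dppa5a was 2.50-fold lower with miR-17 (1.94% of all genes). Zfp42 at P0 was 1.15-fold higher and Dppa5a 1.04-fold higher with miR-17. Averaged over passages, 0 of the 9 genes and 0 of all genes were called in limma (adjusted p 0.9998 for the 9; 271 of all genes, 0.994%, and 0 of the 9 at an unadjusted p under 0.05), and the miR-17 by passage term called 0 (295, 1.08%, at an unadjusted p under 0.05).

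The largest differences within a passage lay between the 2 control cultures, which the design does not set out to compare. At P0 the control miRNA array was below the control shRNA array by 13.2-fold for Dppa5a, 7.21-fold for Zfp42, at least 2.70-fold for Dppa4 and 2.10-fold for Utf1, 4 of the 9 genes where 5.11% of all genes were 2-fold lower. Dppa4 was kept for testing only through the 2 shRNA arrays at P0, where it is higher, so it lends no support to that count. The Tdgf1 probe was 3.04-fold higher in the control miRNA at P0 (16.5% of all genes were 2-fold higher). The second Nanog probe was 4.14-fold lower, and the brighter one 1.32-fold lower. Pou5f1 was 1.28-fold higher and Klf4 1.34-fold higher.

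The manipulated cultures lay beside their controls. For Dppa5a, Zfp42, Dppa4 and Utf1 both miRNA arrays at P0 were at least 2-fold below both shRNA arrays by measured signal. That held for 1.35% of all genes. Dppa4 is no support here, as it was kept through those shRNA arrays alone and its miRNA arrays were dim. For the Tdgf1 probe both miRNA arrays were 2-fold above, as for 10.3%. The means of the 2 shRNA and 2 miRNA arrays at P0 were 4.36 and 0.68 for Dppa5a, -0.62 and -3.48 for Zfp42, and -0.03 and -1.42 for Utf1. At P2 the control miRNA was 2.77-fold below the control shRNA for Dppa5a, at least 1.86-fold for Zfp42 and 1.11-fold for Utf1, and in 0 of the 9 genes were both miRNA arrays 2-fold below both shRNA arrays (5.71% of all genes). Averaged over passages, no gene was called between the controls in limma (unadjusted p under 0.05 in 2613 of all genes, 9.59%, and in Zfp42, Dppa4 and Dppa5a), with adjusted p from 0.519 to 0.964 for the 9. Of the 12 other ES cell genes 5 were 2-fold lower in the control miRNA at P0, as were 3 of 5 extraembryonic genes (median -1.80) and 4 of 8 mesendoderm genes (median -0.66). The 9 neural stem and progenitor markers had a median of 0.29 and the 7 cell cycle genes 0.22.

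**Figure D5:**
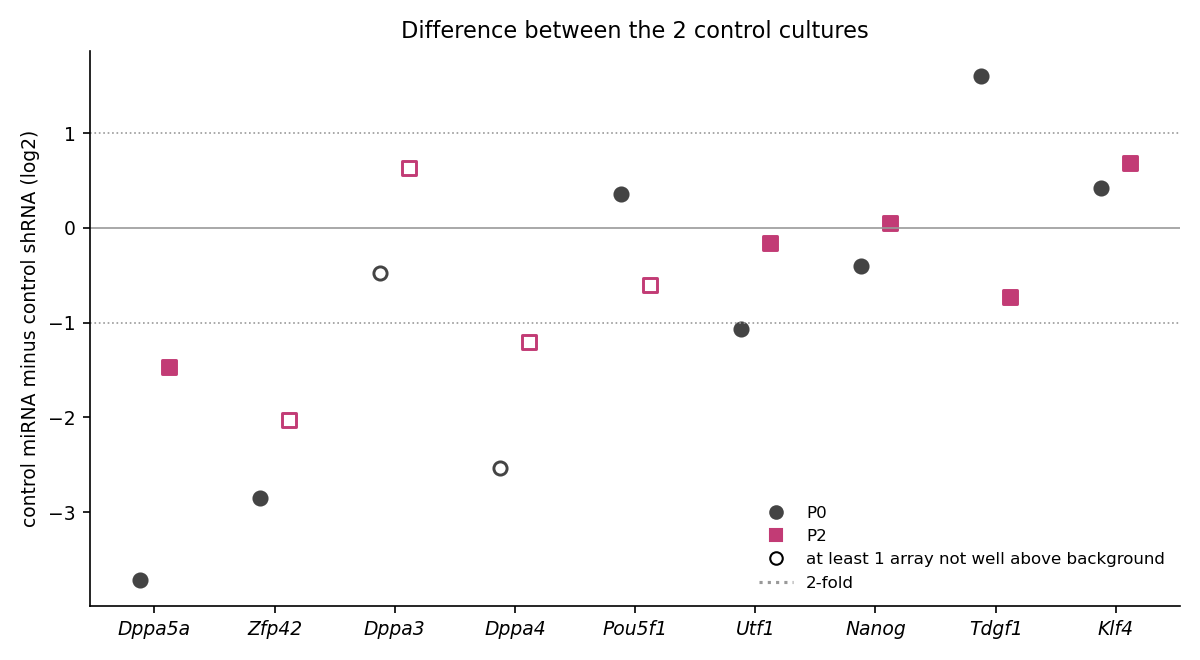
Control miRNA minus control shRNA (y axis, log2) for each gene at P0 (circles) and P2 (squares), 1 array against 1; open symbols have at least 1 array not well above background and dotted lines mark 2-fold. Dppa5a, Zfp42, Dppa4 and Utf1 lie below the lower line at P0 and the Tdgf1 probe above the upper one.

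Zfp42 and Dppa5a had similar profiles. Among the 3 of 16109 genes nearest to Zfp42 over the 8 arrays were Dppa5a at a distance of 0.40 and Dppa5b at 0.49, where Zfp42 itself varied by 2.18. Among the 3 nearest to Dppa5a were Zfp42 at 0.40 and Dppa5b at 0.45. The probes of Zfp42, Dppa5a and Dppa5b share no more than 8 bases with the member they follow. Among the 3 nearest to Utf1 were Dnd1 (0.06) and Rec8 (0.23). The 3 nearest to Klf4 were Tmem51 (0.19), Ttc39a (0.20) and Fhit (0.21), and to Pou5f1 Ces1d (0.24), Fam71f2 (0.30) and Etv4 (0.32). For the brighter Nanog probe, which varied by only 0.15, they were Ncoa6 (0.04), Gtf3c4 (0.05) and Catsperd (0.06).

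Promoter windows were at hand for 6 of the 9 genes, in 8 windows. A Sox and an octamer motif side by side (CATTGT, 1 base of any kind, then ATGCAAA, on either strand), the arrangement that Sox2 and Pou5f1 bind as a pair, occurs in 2 of 32851 windows, and both belong to Nanog. The octamer ATGCAAAT occurs in 1.74% of windows, Zfp42 among them, its core ATGCAAA (contained in both) in 4.63%, and CATTGT, the Sox part, in 12.6%. The matches are shown in capitals on the strand of the gene, where they read as the reverse complement, for the member with the clearest decline and the one with conflicting probes; in Zfp42 the core is capitalised.
Nanog, chr6:122707392-122707442, plus strand: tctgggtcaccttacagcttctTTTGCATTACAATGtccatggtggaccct
Zfp42, chr8:43307166-43307216, minus strand: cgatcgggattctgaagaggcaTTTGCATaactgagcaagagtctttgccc
The Nanog match begins at position -75 from 1 of the 2 annotated starts and -151 from the other, and the Zfp42 core at -185 from its start. Such matches are letters in a window, and no binding was measured.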

How the data were processed

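Total RNA of 8 neurosphere cultures was hybridised to 8 Agilent single-colour arrays on 1 slide, and per the labels cRNA was labelled with Cy3 from 50 ng RNA. Per the file headers and the submitters' processing notes, spots were extracted with Agilent Feature Extraction 10.7.3.1. The gProcessedSignal values deposited by the authors are background-subtracted intensities on a linear scale, per the file headers, not normalized between arrays, with probes placed on mm9. A deposited value table holds a ratio of each signal to a constant per array (492.717 for the control miRNA at P0, for example); its scaling source is not stated, and it was used only as an alternative.

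Outlier spots were left out, spots of a probe were averaged, and log2(gProcessedSignal) minus each array's log2 75th percentile was used. Of 55681 non-control probes, 26425 were named through their accession and 29256 kept the file's name. A probe well above background on at least 2 arrays was kept (39640 probes, 27255 genes), and a gene took its probe with the highest mean signal. limma 3.58.1 in R 4.3.3 fitted condition and passage to all genes (3 residual and 2.19 prior degrees of freedom; 1 and 3.03 with interactions), with Benjamini-Hochberg adjustment over all genes tested, two-sided, at 0.05. The fit was tested on simulated data. A group dim on all its arrays was set, per array, to the higher of the lowest signal well above background and its own, giving folds of the form at least N. The number of arrays, 1 per condition and passage, limits the precision.

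Named beside the members are up to 4 genes per list with the largest passage difference, called genes of a list, and the 3 genes nearest in profile to each member well above background on at least 4 arrays, of which some are not reported here; Sox2, Nodal, Klf6 and the markers given for identity were named after their values were seen. The members, lists and tests were chosen with earlier results of these data known. Sequences are from the deposited files and RefSeq tables.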

Additional observations from a re-analysis of the deposited data

Results flagged for a closer look

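For both Nanog probes the P2 minus P0 difference was negative in the shRNA cultures and positive in the miRNA cultures. By their gene probe, 3697 of 27255 genes (13.6%) have opposite signs in the shRNA and miRNA cultures. The brighter probe hardly moved, with a mean passage difference of 0.05 ± 0.18 (SE). The contrast between vector systems was not tested. For the brighter probe A_55_P2007699 the P2 minus P0 difference was -0.141 in the control shRNA, -0.0665 in the Nr2f1/2 shRNA, 0.307 in the control miRNA and 0.0965 with miR-17. For the second probe A_55_P2007708 it was -1.351, -3.373, 1.305 and 1.212 in that order. A test for a single outlying sample needs groups of 4 arrays or more, and no group here has more than 1.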

How the results depend on the processing

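The count called lower with passage, 2 of 9, was 4 with normexp background correction (offset 50) and with a trended prior, 1 with quantile normalization and with a filter on all 8 arrays (which leaves 5 of the 9), 0 from the control conditions only or the shRNA arrays only, and 6 from the miRNA arrays only; leaving out 1 array at a time gave 0 to 3. The count called higher, 1, was 0 without a filter on dim probes, from the control conditions only and from the shRNA arrays only, and 0 to 1 with 1 array left out. From the miRNA arrays only, 13792 of all 27255 genes were called in either direction. The 6 of 9 called lower there are not read as particular to these genes. The cause of these changes in count was not tested. The 2 of 9 called lower include Dppa3, which was kept through P0 arrays alone and is no support for a decline. Any count here that includes Dppa3 or Dppa4 has the same limit. The Nanog difference of 0.05 turned to -0.25 for the mean of its probes, -0.10 in the shRNA arrays only and -0.55 with the second probe (added after seeing the data), and lay between -0.037 and 0.112 with 1 array left out. Without Nanog and Tdgf1, also added afterwards, 2 and 1 of 7 genes were called. That outcome was fixed in advance, as neither gene was called and the adjustment ran over all genes. The 8 genes other than Nanog kept their direction with passage under all alternatives in which they were tested. Over all genes, 1339 were called with passage, and 0 to 13792 under the alternatives, from 4809 without either knockdown array to 0 without any other array; normexp gave 7077, the trended prior 4320, no block for condition 3922, the filter on all 8 arrays 3677. Passage was already compared within condition, as condition was the block in the fit. No further pairing was possible because the labels number no replicates. Signals near background limit Dppa3, Dppa4, Zfp42 and Pou5f1, which were above it on 2, 2, 5 and 6 of 8 arrays.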
